A study of Mus musculus with 6 samples.

Results

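The genes described here build the machinery that transcribes and processes ribosomal RNA. They are 43 mouse genes named by symbol: subunits and initiation factors of RNA polymerase I (Pol I), proteins of small nucleolar ribonucleoproteins (snoRNPs) and factors that process pre-ribosomal RNA. All 43 were among the 22579 genes of the deposited count table and among the 14766 with enough reads to be tested. The study profiled THY1-positive cells, labelled spermatogonia, at day 4, with about 1000 cells in each of 3 Ddx20 knockout and 3 littermate control libraries. DDX20 (Gemin3) belongs to the DEAD-box helicases and works in the complex that SMN forms to put together spliceosomal snRNPs. A second name in the labels, cKO, marks the knockout, but the promoter or cell type behind the deletion is not given in the sources used here, nor is the age unit of day 4. THY1 is on the surface of the earliest spermatogonia and also of other cells, T lymphocytes among them.

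Pol I transcribes one kind of gene, the repeated ribosomal DNA, in the nucleolus. RRN3 carries the active polymerase to promoters that UBTF and the selectivity factor, made of TAF1 subunits, have bound. Box C/D snoRNPs then methylate the precursor RNA, H/ACA snoRNPs convert uridines in it to pseudouridine, and separate sets of factors fold and cut the small and the large subunit RNAs.

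Total counts ran from 11656130 to 12497967 in knockout and from 8428871 to 11893287 in control libraries. Ddx20 stood at 11.9, 15.2 and 10.7 CPM in knockout 1, 2 and 3, against 63.8, 36.4 and 40.7 CPM in control 1, 2 and 3, where CPM is the usual depth-scaled count, here on TMM-adjusted library sizes (log2 fold change −1.89 ± 0.26 (SE), edgeR adjusted p 0.0118). Knockout 1 and 2 nearly coincided: a chi-square averaged over genes came to 1.78 between them, with 1 expected from sampling noise, while the 14 remaining pairs spanned 11.956 to 104. The labels do not tie the pair to separate animals. An SD with n = 3 may therefore count near copies as separate knockouts. A further setting entered this pair as 1 library. Of 16 markers of undifferentiated spermatogonia 4 fell (Itga6, Gfra1, Ret and Etv5; 2.8% of all genes tested fell) and 0 rose, with a list median of −0.61 on the log2 scale, although their summed level overlapped, at 4388 to 4785 CPM in knockouts and 4121 to 4920.2 CPM in controls. Of 7 lists of other cell types, 6 had summed levels above every control in every knockout library, for example smooth muscle at 340.4 to 457 CPM in knockouts and 142 to 175 CPM in controls. Sertoli markers summed to 513 to 659.8 CPM in knockouts and 289.6 to 380.0 CPM in controls, and macrophage markers to 1969.6 to 2825 CPM in knockouts and 723 to 1747 CPM in controls. Among the 50 tested genes of the 7 lists 10 rose and 0 fell by edgeR, where 2.03% of all genes tested rose, and Amh, Dhh, Fshr, Cnn1 and Tagln were at 0 in at least 1 control. With knockout 1 and 2 as 1 library edgeR called 0 of these 50 and 0 of the 16 spermatogonial markers, while DESeq2 and limma-voom each called 8 of the 50 and 2 of the 16. Without knockout 1, 2 or 3 edgeR called 1, 2 and 0 of the somatic markers and 0 of the 16 each time, and without control 2 it called 6 and 1. Mitochondrially encoded transcripts took 19.8% to 20.1% of counts in knockouts and 14.0% to 16.9% in controls. The part of these shifts in the results was not tested, and in bulk RNA fewer cells of a type and less RNA per cell cannot be told apart.

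Of the 43 genes, 2 fell in the knockouts and 0 rose: Rrn3, the initiation factor of Pol I, and Utp18, a subunit of the small subunit processome. The other 41 did not pass the edgeR quasi-likelihood test at an adjusted p under 0.05. The called genes are 4.65% of the 43, close to the 4.83% of all genes tested (2.8% lower and 2.03% higher). Log2 fold changes (knockout over control) ranged from −0.83 to 0.81 with a median of −0.13, beside a median of 0.0055 over all genes tested. They were below 0 in 29 genes and above 0 in 14, where 49.7% of all genes tested were below 0. In 11 genes every knockout library lay below every control and in 5 above, together 37.2% of the 43 beside 32.6% of all genes (15.8% below and 16.8% above). At an unadjusted p under 0.05 there were 12 lower and 3 higher genes, 34.9% of the 43 beside 24.1% of all genes (12.8% lower and 11.3% higher).

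**Figure D1:**
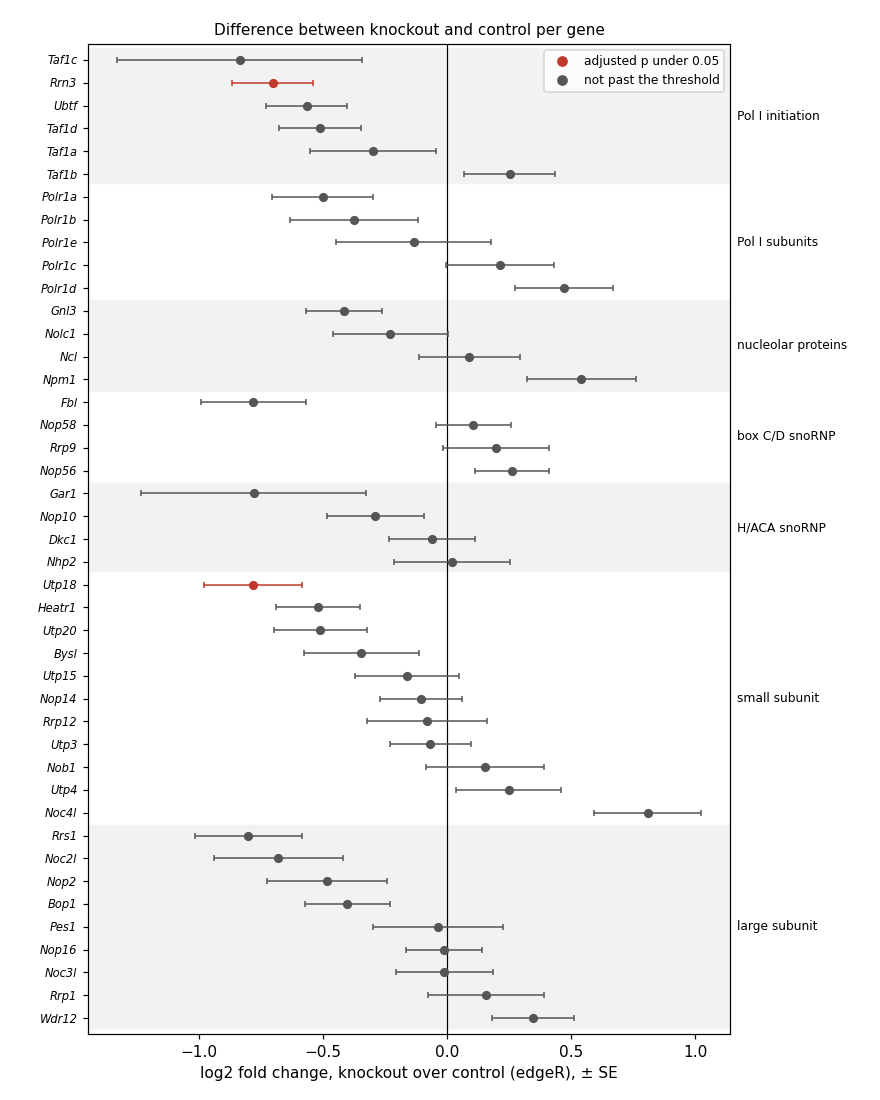
Log2 fold change, knockout over control, of each of the 43 genes with its standard error (x axis), by role (y axis). Rrn3 at −0.70 and Utp18 at −0.78 are the genes that passed an adjusted p under 0.05, and 29 of the 43 lie below 0.

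Calls depended on the libraries and the test. When knockout 1 and 2 entered as 1 library, edgeR called 0 of the 43 (0.00649% of all genes), with 9 of the 43 (20.9%) at an unadjusted p under 0.05 beside 14% of all genes. In the same setting the DESeq2 Wald test called Utp18 and Noc4l (3.04% of all genes) and limma-voom called Rrn3, Utp18 and Noc4l (3.28%). Without knockout 1, 2 or 3, edgeR called 0 of the 43 each time, beside 0.0325%, 0.065% and 0.0194% of all genes. At an unadjusted p under 0.05 there were then 9, 9 and 11 of the 43 (20.9%, 20.9% and 25.6%), beside 14.2%, 14% and 22.2% of all genes. Without control 1, 2 or 3 it called 2, 0 and 6 of the 43, beside 5.41%, 1.17% and 5.27% of all genes, and without control 2 there were 12 (27.9%) at an unadjusted p under 0.05, beside 24.1% of all genes. With all 6 libraries DESeq2 called 7 of the 43 (11.1% of all genes) and limma-voom 11 (19.5%). Other scalings gave 1 with DESeq2 size factors (4.78% of all genes) and 8 with library size alone (9.33%). Other filters gave 4 without a filter (4.25%) and 2 with at least 1 CPM in at least 3 libraries (5% of all genes). The replicate block gave 4 (4.63%), and leaving out mitochondrially encoded genes gave 2 (4.85%).

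The initiation factors had the lowest median of the 7 role groups, −0.54 on the log2 scale. Of the 6 genes 5 were below 0, beside 49.7% of all genes tested, and 1 was called, beside 4.83%. With a trend of exon length and GC content removed, their median was −0.47, close to −0.46 for the H/ACA proteins. Rrn3, also named TIF-IA, connects Pol I to its promoter and is a point where growth signals act on it. The gene occupies 13780708 to 13814839 of chromosome 16 (mm10, plus strand). It had 73.6, 74.0 and 92.4 CPM in knockout 1, 2 and 3, against 118, 149.7 and 123 CPM in control 1, 2 and 3. All knockout values lay below all control values, knockout 3 being nearest to the controls. Means were 80.0 ± 10.7 CPM in knockouts and 130.2 ± 17.0 CPM in controls (SD, n = 3 each), a level 1.63-fold lower, with a log2 fold change of −0.70 ± 0.16 (SE) and an edgeR adjusted p of 0.0395. The reads behind them numbered 792 to 1026 in knockouts and 1239 to 1600 in controls. The call held without control 1 (edgeR adjusted p 0.0267) and was lost without control 2 (0.0985), control 3 (0.0514), knockout 1 (0.225), knockout 2 (0.218) or knockout 3 (0.0768).

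The promoters of both called genes hold the letters CACGTG, the E-box that MYC and related factors can bind, so their sequences are shown with those of Utp20, which also holds it, and of Noc4l, which does not. They come from RefSeq on GRCm38.p6 and run, on the gene's strand, from 250 bases before to 50 bases after the gene start: chr16:13780449-13780748 (plus) for Rrn3, chr11:93885717-93886016 (minus) for Utp18, chr10:88826765-88827064 (minus) for Utp20 and chr5:110653333-110653632 (minus) for Noc4l. Capitals mark CACGTG, which reads the same on both strands.
Rrn3: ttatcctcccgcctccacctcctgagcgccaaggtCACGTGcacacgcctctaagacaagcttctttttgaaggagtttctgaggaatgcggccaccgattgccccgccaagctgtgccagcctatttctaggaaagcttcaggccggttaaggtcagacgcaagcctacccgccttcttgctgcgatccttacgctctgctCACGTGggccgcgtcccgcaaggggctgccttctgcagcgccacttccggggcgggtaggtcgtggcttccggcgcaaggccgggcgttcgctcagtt
Utp18: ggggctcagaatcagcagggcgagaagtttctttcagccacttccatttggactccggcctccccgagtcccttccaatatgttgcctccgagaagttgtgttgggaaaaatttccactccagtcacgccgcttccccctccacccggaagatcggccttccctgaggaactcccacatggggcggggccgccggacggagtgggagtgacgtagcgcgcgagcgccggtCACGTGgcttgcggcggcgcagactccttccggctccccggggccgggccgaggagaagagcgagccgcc
Utp20: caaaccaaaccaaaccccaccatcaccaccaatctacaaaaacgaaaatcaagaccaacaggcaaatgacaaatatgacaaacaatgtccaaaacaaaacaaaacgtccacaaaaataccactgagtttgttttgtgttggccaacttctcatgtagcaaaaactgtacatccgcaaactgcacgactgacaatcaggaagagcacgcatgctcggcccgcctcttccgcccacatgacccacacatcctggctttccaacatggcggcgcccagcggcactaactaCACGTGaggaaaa
Noc4l: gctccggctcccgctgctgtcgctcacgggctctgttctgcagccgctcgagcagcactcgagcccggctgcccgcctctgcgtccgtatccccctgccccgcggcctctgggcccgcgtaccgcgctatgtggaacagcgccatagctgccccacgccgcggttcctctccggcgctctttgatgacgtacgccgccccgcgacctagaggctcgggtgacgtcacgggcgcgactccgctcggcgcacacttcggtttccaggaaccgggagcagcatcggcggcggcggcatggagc
In Rrn3 the E-box starts 215 and again 48 bases before the gene start, in Utp18 it starts 20 bases before and in Utp20 37 bases after. Windows were found for 38 of the 43 genes, and 6 of these (15.8%) held the letters, beside 8.09% of all 27025 genes with a window. The other 3 holders were Nop2 (log2 fold change −0.48), Pes1 (−0.037) and Utp4 (0.25). The median log2 fold change was −0.50 over the 6 genes with the letters and −0.086 over the 32 without. This difference was not tested. Npm1 (0.54), Rrp12 (−0.082), Bop1 (−0.40), Rrs1 (−0.80) and Fbl (−0.78) had no window and are in neither group. A match of letters is a description and not a binding site.

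Ubtf, the upstream binding factor that coats active ribosomal DNA, stood at 55.6, 57.1 and 63.1 CPM in knockouts and 99.8, 87.4 and 73.1 CPM in controls. Taf1d, a selectivity factor subunit, stood at 103, 98.5 and 98.2 CPM in knockouts and 149, 164 and 114 CPM in controls. In both genes the groups did not overlap and control 3 came nearest to the knockouts, but neither passed (log2 fold changes −0.57 ± 0.16 and −0.51 ± 0.17 (SE), edgeR adjusted p 0.0714 and 0.0961). Exons of Cep295 overlap Taf1d on the opposite strand, and those of Dnaaf1 overlap Taf1c. Reads within the shared stretches cannot be told apart without the strand, and no strand record is described. In all, 15 of the 43 genes have such an overlap, and neither Rrn3 nor Utp18 is among them. Taf1c had 2.51, 1.81 and 3.42 CPM in knockouts and 6.02, 4.94 and 2.91 CPM in controls. These values overlapped and rest on few reads (20 to 38 in knockouts and 38 to 63 in controls; log2 fold change −0.83 ± 0.49 (SE), edgeR adjusted p 0.336). Taf1a ranged over 11.2 to 17.3 CPM in knockouts and 15.8 to 20.5 CPM in controls. Taf1b was the one initiation factor with a positive log2 fold change, 0.25 ± 0.18 (SE), with 42.2 to 51.3 CPM in knockouts and 35.1 to 47.1 CPM in controls.

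Among the 5 Pol I subunits 0 were called by edgeR, with 1 lower and 1 higher at an unadjusted p under 0.05, and limma-voom called Polr1d with all 6 libraries (adjusted p 0.0496) but not with knockout 1 and 2 as 1 library (0.305). Polr1a, the largest catalytic subunit, stood at 21.6, 21.6 and 20.9 CPM in knockouts and 35.8, 25.3 and 29.4 CPM in controls. The knockouts were nearly equal and lay below all controls, which spread more widely (log2 fold change −0.50 ± 0.20 (SE), edgeR adjusted p 0.166). Polr1d, a small subunit that RNA polymerase III also uses, had 194, 190.3 and 182 CPM in knockouts and 95.6, 164 and 148 CPM in controls. Here the knockouts lay above all controls (0.47 ± 0.20 (SE), edgeR adjusted p 0.178). Within a library, the count ratio of Polr1d to Polr1a was 8.97, 8.82 and 8.72 in knockouts and 2.67, 6.49 and 5.03 in controls, a ratio chosen after its values were seen. The remaining 3 overlapped between groups: Polr1c, also shared with RNA polymerase III, at 0.21 ± 0.22, Polr1b, the second catalytic subunit, at −0.38 ± 0.26, and Polr1e at −0.13 ± 0.31 (log2 fold change, SE).

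Of the 4 general nucleolar proteins 0 were called by edgeR, with 1 lower and 1 higher at an unadjusted p under 0.05. Npm1 encodes nucleophosmin, a histone and ribosome chaperone, and stood at 3677, 3739 and 3990.2 CPM in knockout 1, 2 and 3, against 2215, 3230.5 and 2398 CPM in control 1, 2 and 3. Every knockout lay above every control, control 2 coming closest (log2 fold change 0.54 ± 0.22 (SE), edgeR adjusted p 0.167). DESeq2 and limma-voom called Npm1 with all 6 libraries (adjusted p 0.0184 and 0.0357) and not with knockout 1 and 2 as 1 library (0.0845 and 0.222). Processed copies of Npm1 are known, and reads shared with them make its level uncertain. Gnl3, nucleostemin, a nucleolar GTPase of stem and dividing cells, had 178, 179 and 204 CPM in knockouts and 239.9, 273 and 235 CPM in controls. It lay below all controls (−0.41 ± 0.15 (SE), edgeR adjusted p 0.13), and exons of Pbrm1 overlap it on the opposite strand. Ncl, nucleolin, had 669.9, 691 and 685 CPM in knockouts, inside the control values of 784, 654 and 483 CPM. Nolc1, a chaperone of snoRNPs, ranged over 49.9 to 58.1 CPM in knockouts and 44.5 to 87.1 CPM in controls.

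**Figure D2:**
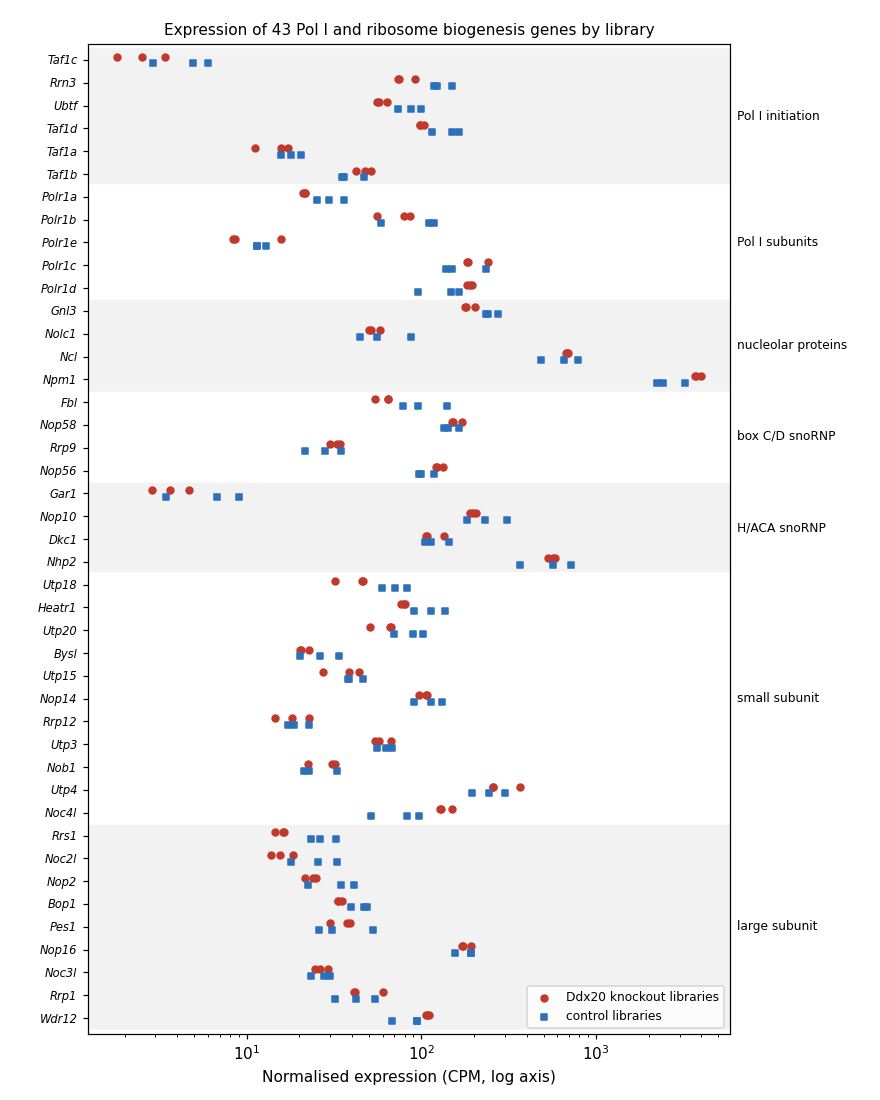
Normalised expression (CPM, log axis) of each gene, by role, in each of the 3 knockout and 3 control libraries. Npm1 lies highest, at 3677 to 3990.2 CPM in knockouts and 2215 to 3230.5 CPM in controls, and for most genes the groups overlap.

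The core proteins of box C/D snoRNPs lay on both sides of the controls, and 0 of 4 were called, with 1 lower at an unadjusted p under 0.05. Fbl, fibrillarin, is the methyltransferase of the particle and stood at 64.7, 64.0 and 54.0 CPM in knockouts and 140.3, 95.3 and 78.3 CPM in controls. All knockouts lay below all controls, control 1 being the highest (log2 fold change −0.78 ± 0.21 (SE), edgeR adjusted p 0.0609). Nop56, a scaffold of the same particle, had 121, 123 and 133 CPM in knockouts and 96.6, 99.1 and 119 CPM in controls. It lay above all controls (0.26 ± 0.15 (SE), edgeR adjusted p 0.312), and exons of Idh3b overlap it on the opposite strand. The count ratio of Nop56 to Fbl, chosen after its values were seen, was 1.87, 1.92 and 2.46 in knockouts and 0.688, 1.04 and 1.51 in controls. Nop58, the other scaffold, and Rrp9, which binds the snoRNA of early cleavage, overlapped, at 0.11 ± 0.15 and 0.20 ± 0.21 (log2 fold change, SE). Fbl was called by DESeq2 and limma-voom with all 6 libraries (adjusted p 0.0144 and 0.00724), and by none of edgeR, DESeq2 and limma-voom with knockout 1 and 2 as 1 library (0.206, 0.0538 and 0.0586).

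All 4 H/ACA proteins overlapped between groups, and 0 were called by edgeR, with 0 at an unadjusted p under 0.05. Gar1, which completes the particle, had 2.88, 3.63 and 4.68 CPM in knockouts and 9.07, 6.74 and 3.45 CPM in controls, from 31 to 52 reads in knockouts and 45 to 95 in controls (log2 fold change −0.78 ± 0.45 (SE), edgeR adjusted p 0.328). Nhp2 had 581, 566 and 527 CPM in knockouts and 365, 717 and 569 CPM in controls. Nop10 had 197, 206 and 189 CPM in knockouts and 183, 309 and 232 CPM in controls. For both small proteins the controls enclosed every knockout value. Dkc1, the pseudouridine synthase itself, ranged over 106 to 134 CPM in knockouts and 105 to 145 CPM in controls.

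Utp18 was the called gene among the 11 small subunit factors, whose median was −0.10. The protein is a WD-repeat subunit of the processome, the particle that forms on nascent precursor RNA, and the gene spans 93859243 to 93885766 of chromosome 11 (mm10, minus strand). It had 46.5, 45.4 and 32.0 CPM in knockouts and 82.2, 59.7 and 70.9 CPM in controls. The groups did not overlap, and knockout 3 was the lowest. Means were 41.3 ± 8.10 CPM in knockouts and 70.9 ± 11.3 CPM in controls (SD, n = 3 each), a level 1.72-fold lower, with a log2 fold change of −0.78 ± 0.20 (SE) and an edgeR adjusted p of 0.0492. The call was lost when any of the 6 libraries was left out: the edgeR adjusted p was 0.0732, 0.0684 and 0.0735 without control 1, 2 and 3, and 0.166, 0.169 and 0.122 without knockout 1, 2 and 3.

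Noc4l had the highest log2 fold change of the 43 genes. In yeast its homologue pairs with that of Nop14 in small subunit maturation. Noc4l stood at 129, 128 and 149 CPM in knockouts and 51.5, 83.1 and 96.9 CPM in controls, and Nop14 at 106, 108 and 97.2 CPM in knockouts and 131, 91.1 and 113 CPM in controls. Noc4l was above every control in every knockout, while Nop14 overlapped. The log2 fold changes were 0.81 ± 0.22 (SE) with an edgeR adjusted p of 0.0585 for Noc4l and −0.10 ± 0.16 (SE) with 0.75 for Nop14. Noc4l did not pass here, and passed with knockout 1 and 2 as 1 library by DESeq2 (adjusted p 0.0426) and limma-voom (0.0296).

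Heatr1 and Utp20, large scaffold proteins of the processome, lay below the controls without passing. Heatr1 stood at 79.3, 80.8 and 76.8 CPM in knockouts and 137, 113 and 90.3 CPM in controls (−0.52 ± 0.17 (SE), edgeR adjusted p 0.101), with exons of Lgals8 on the opposite strand. Utp20 stood at 65.7, 66.7 and 51.0 CPM in knockouts and 102, 89.7 and 69.3 CPM in controls (−0.51 ± 0.19 (SE), edgeR adjusted p 0.129). In both, control 1 was the highest library. The other 7, Nop14 included, overlapped between groups. Their log2 fold changes were −0.35 for Bysl, −0.16 for Utp15, −0.082 for Rrp12, −0.067 for Utp3, 0.15 for Nob1, the nuclease of the final small subunit cut, and 0.25 for Utp4.

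Of the 9 large subunit factors 0 were called by edgeR, with 3 lower and 0 higher at an unadjusted p under 0.05, and DESeq2 and limma-voom each called Rrs1 with all 6 libraries (adjusted p 0.0223 and 0.0142) but not with knockout 1 and 2 as 1 library (0.114 and 0.122). Rrs1, needed in yeast to bring ribosomal proteins into the pre-large subunit, stood at 16.2, 16.3 and 14.5 CPM in knockouts and 32.3, 26.3 and 23.3 CPM in controls. Each knockout lay below each control (log2 fold change −0.80 ± 0.22 (SE), edgeR adjusted p 0.06). The partners of the PeBoW complex, which matures large subunit RNA, lay on different sides. Bop1 had 33.5, 33.3 and 35.2 CPM in knockouts and 48.6, 46.6 and 39.5 CPM in controls, Wdr12 had 111, 108 and 107 CPM in knockouts and 67.4, 94.9 and 94.2 CPM in controls, and Pes1 had 39.0, 37.4 and 30.0 CPM in knockouts and 52.5, 30.8 and 25.9 CPM in controls. Bop1 was below all controls, Wdr12 above them, and Pes1 overlapped (−0.40 ± 0.17, 0.35 ± 0.17 and −0.037 ± 0.26 (SE), edgeR adjusted p 0.18, 0.23 and 0.951). On the opposite strand lie exons of Mroh1 for Bop1, of Carf for Wdr12 and of Samd11 for Noc2l. Noc2l and the RNA methyltransferase Nop2 overlapped, at −0.68 ± 0.26 and −0.48 ± 0.24 (log2 fold change, SE), as did Nop16 (−0.012), Noc3l (−0.011) and Rrp1 (0.16).

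**Figure D3:**
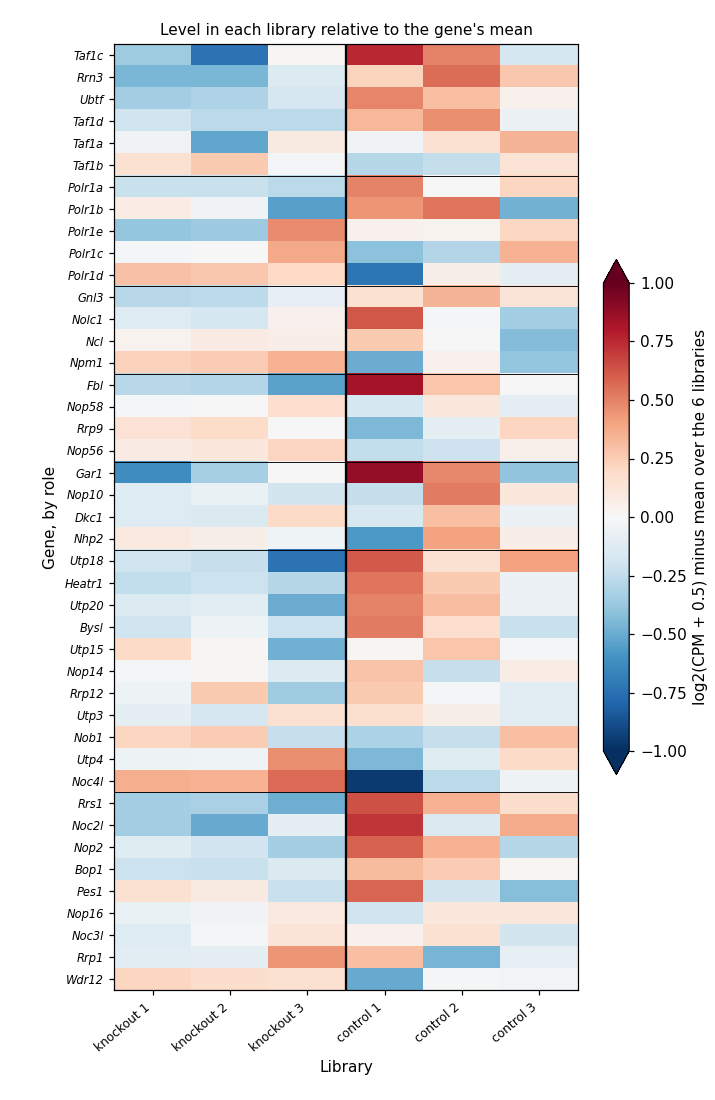
Level of each gene (rows, by role) in each library (columns), as log2(CPM + 0.5) minus the gene's mean over the 6 libraries. Knockout 1 and 2 look alike, while control 1 is the highest library in 19 genes and the lowest in 15.

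Much of the spread among the 43 genes lay between the controls, as the heat map by library shows. The highest knockout was a median of 1.17 times the lowest knockout (up to 1.89), and the highest control a median of 1.46 times the lowest control (up to 2.63). In 37 of the 43 genes the controls spread more widely, but knockout 1 and 2 nearly coincide, which by itself narrows the knockout range. Control 1 held the highest value of all 6 libraries in 19 genes and the lowest in 15. Control 2 was highest in 10 and lowest in 2, and knockout 3 highest in 8 and lowest in 11. Between knockout 1 and 2 the higher value was a median of 1.02 times the lower.

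Per length of exon, ranked by the mean over all 6 libraries, Npm1 led with 1427 CPM per kb in knockouts and 981 in controls. Nhp2 (487 CPM per kb in knockouts and 480.0 in controls) and Nop10 (178 CPM per kb in knockouts and 218 in controls) followed. The lowest were Taf1c (0.740 CPM per kb in knockouts and 1.32 in controls), Polr1a (1.80 CPM per kb in knockouts and 2.54 in controls) and Polr1e (8.37, 8.53 and 15.7 CPM in knockouts and 11.5, 11.4 and 12.9 CPM in controls, or 2.78 CPM per kb in knockouts and 3.06 in controls). Gar1 came next, at 2.18 CPM per kb in knockouts, below Polr1e there, and 3.75 in controls. Exon length is the union of all annotated exons, rare ones included, which lowers the value per kb of genes such as Polr1a. Summed over the 43 genes, CPM came to 7953, 8022 and 8439.8 in knockouts and 6590.2, 8067 and 6710.4 in controls, and without Npm1 to 4276, 4283 and 4449.6 in knockouts and 4375, 4836 and 4313 in controls. Both sums overlapped between groups. The initiation factors summed to 299, 294 and 317 CPM in knockouts and 424, 460.3 and 381 CPM in controls, without overlap. Nucleolar proteins came to 4577 to 4937 CPM in knockouts and 3161 to 4213 CPM in controls. Most of this was Npm1, at 3677 to 3990.2 CPM in knockouts and 2215 to 3230.5 CPM in controls. Ncl and Nolc1 overlapped between groups, and Gnl3 lay below all controls. Pol I subunits came to 484.0 to 514.6 CPM in knockouts and 392.1 to 483.5 CPM in controls. The nucleolar and Pol I subunit sums lay above the controls, the latter by a narrow margin, and the other role groups overlapped. As a percent of counts Pol I subunits overlapped, at 0.0448% to 0.0457% in knockouts and 0.0448% to 0.0530% in controls. Of the 5 subunits, 3 had log2 fold changes below 0. Outside the 43, other Pol I factors came to 350 to 364 CPM in knockouts and 373 to 461 CPM in controls. RNA polymerase III subunits came to 301 to 334 CPM in knockouts and 379 to 421 CPM in controls. The sums of other snoRNP, small subunit, large subunit, exosome and Pol II subunit genes overlapped between groups.

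Ribosome biogenesis genes outside the 43 were read from 5 lists of 128 genes, 127 of which were tested. By edgeR 2 fell and 0 rose, 1.57% beside 4.83% of all genes, with a median log2 fold change of −0.15 and 82 below 0. Both belong to the large subunit list, and with knockout 1 and 2 as 1 library edgeR called 0 of the 127. Cebpz, whose yeast homologue pairs with that of Noc2l, had 79.6, 73.7 and 62.3 CPM in knockouts and 136, 113 and 122 CPM in controls (−0.78 ± 0.16 (SE), edgeR adjusted p 0.0257). Urb1, a large factor of early pre-large subunits, had 15.6, 16.8 and 14.9 CPM in knockouts and 41.0, 25.3 and 31.1 CPM in controls (−1.04 ± 0.23 (SE), edgeR adjusted p 0.0328). List medians were −0.32 for 9 other Pol I factors, −0.18 for 46 small subunit, −0.17 for 10 snoRNP, −0.12 for 48 large subunit and −0.11 for 14 exosome genes. Subunits of the other polymerases gave 0 calls by edgeR. The 8 Pol II subunits had a median of −0.083 (1 lower and 1 higher at an unadjusted p under 0.05) and the 5 subunits common to the polymerases one of −0.087 (0 at an unadjusted p under 0.05). The 10 subunits of RNA polymerase III, which makes transfer RNA, had a median of −0.37, with 4 lower and 1 higher at an unadjusted p under 0.05. In 6 of these 10 every knockout lay below every control, where 15.8% of all genes did. Polr3b, the second largest subunit, had the smallest p, with 16.1 ± 2.34 CPM in knockouts and 28.6 ± 5.67 CPM in controls (SD, n = 3 each) and an edgeR adjusted p of 0.0652.

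**Figure D4:**
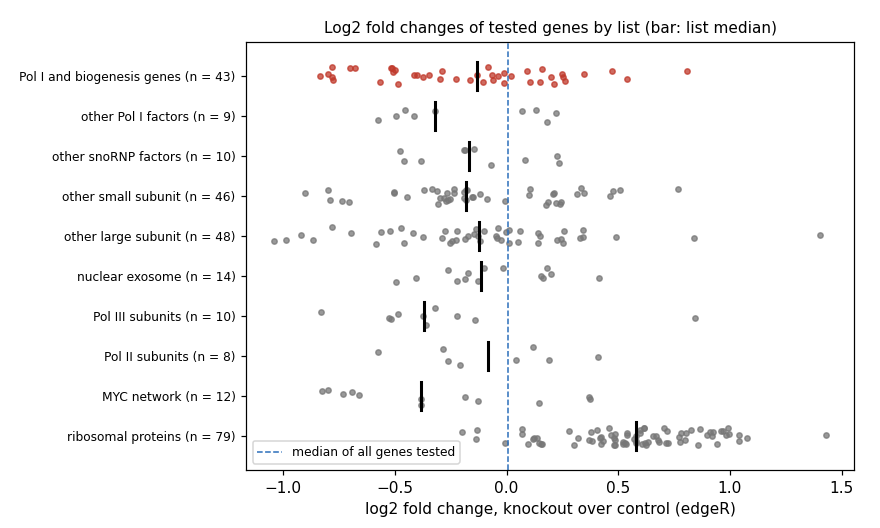
Log2 fold change, knockout over control, of each tested gene (points) in the 43 Pol I and biogenesis genes (red) and in other gene lists (grey), where black bars are list medians and the dashed line is the median of all genes tested. The 43 genes centre on −0.13 and the 79 ribosomal protein genes on 0.58.

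The ribosomal proteins that these factors assemble gave other values. Of 79 genes 5 rose and 0 fell (Rps4x, Rpl4, Rpl10, Rps2 and Rpl11), 6.33% beside 4.83% of all genes, with a median of 0.58. The count moved with the libraries and the test: edgeR called 0 with knockout 1 and 2 as 1 library and 0 without knockout 1, 2 or 3, but 12, 18 and 1 without control 1, 2 and 3. DESeq2 called 38 and limma-voom 46 with all 6 libraries, and 19 and 7 with the pair as 1 library, and 0 fell in each of these settings. In 49 of the 79 (62.0%) every knockout lay above every control, as in 5 of the 43 biogenesis genes (11.6%), beside 16.8% of all genes. Their summed level was 144419, 145574 and 136442 CPM in knockouts and 65587, 122387 and 88420.3 CPM in controls, control 1 being the lowest. The difference between the lists was not tested, and reads shared with the many processed copies of these genes make single values uncertain. A list of 7 genes of the p53 pathway and its link to ribosome assembly gave 1 higher and 0 lower by edgeR (14.3% beside 4.83% of all genes). With knockout 1 and 2 as 1 library it gave 0. The gene called, Rpl11, is also among the 5 ribosomal protein calls above. Rpl11, which binds MDM2 when ribosome assembly is disturbed, had 1098, 1085 and 974 CPM in knockouts and 495, 756 and 530.1 CPM in controls (0.83 ± 0.21 (SE), edgeR adjusted p 0.0481). Rpl5, which binds MDM2 together with it, overlapped and did not pass (0.40 ± 0.28 (SE), edgeR adjusted p 0.421). Mdm2 and the p53 target Cdkn1a did not pass either (0.14 ± 0.15 and 0.37 ± 0.15 (SE), edgeR adjusted p 0.611 and 0.151).

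Of 12 genes of the MYC network 1 fell and 0 rose, 8.33% beside 4.83% of all genes, with a median of −0.38. Mga, a MAX partner that acts against MYC, had 58.2, 55.3 and 59.7 CPM in knockouts and 114, 97.2 and 90.8 CPM in controls (−0.80 ± 0.15 (SE), edgeR adjusted p 0.0222). By edgeR 0 of the 12 were called with knockout 1 and 2 as 1 library, without any 1 knockout or without control 2, while DESeq2 and limma-voom each called 1 with the pair as 1 library. Mycn had 32.3, 29.2 and 25.5 CPM in knockouts and 49.2, 47.7 and 40.8 CPM in controls, which did not overlap and did not pass (−0.66 ± 0.18 (SE), edgeR adjusted p 0.0615). Myc overlapped, at 12.5, 12.5 and 6.66 CPM in knockouts and 11.7, 3.32 and 9.35 CPM in controls.

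Across the 14763 tested genes with exon length and GC content, log2 fold change had a Pearson r of −0.21 and a Spearman rho of −0.27 with log2 exon length. Over the 43 genes these were −0.095 and −0.16, as a description over genes that share the same libraries. With a trend of both properties removed from each library, edgeR called 3 of the 43, beside 4.16% of all genes. These were Rrn3 (−0.66, adjusted p 0.0422), Rrs1 (−1.08, adjusted p 0.034) and Nop10 (−0.62, adjusted p 0.0482), while Utp18 had an adjusted p of 0.0517.

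In the annotation 6 of the 43 genes enclose 24 small nucleolar RNA genes: 8 in Taf1d, 5 in Nop56, 4 in Nop58, 3 each in Gnl3 and Ncl and 1 in Dkc1. Log2 fold changes of these hosts ran from −0.51 for Taf1d to 0.26 for Nop56. The small RNAs lack the poly(A) tail that the library primer binds and were not analysed here. Of 15 listed non-coding hosts 5 were in the table, with 0 called by edgeR and 0 at an unadjusted p under 0.05.

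**Figure D5:**
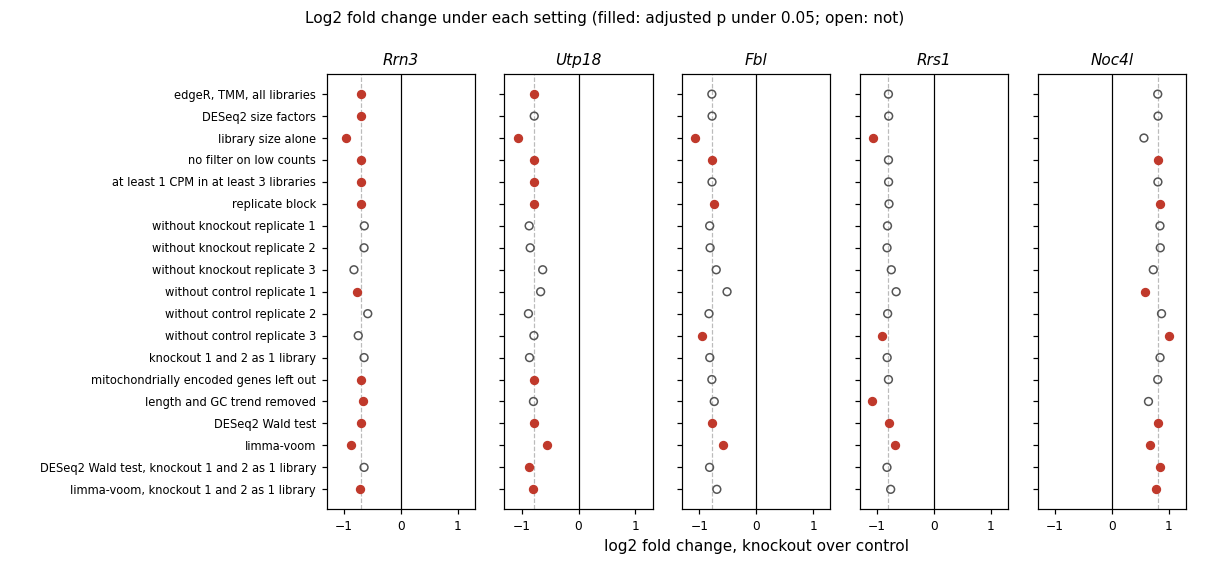
Log2 fold change, knockout over control, of 5 genes (panels) under each setting (rows), filled red where the adjusted p is under 0.05. Rrn3, Utp18, Fbl and Rrs1 stay below 0 and Noc4l above 0 in each setting drawn, while calls come and go.

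Directions held more often than calls for the genes that differed most. Rrn3, Utp18, Fbl and Rrs1 stayed below 0 and Noc4l above 0 in all 18 alternatives. The groups of these genes did not overlap and every alternative drew on the same 6 libraries. Leaving out or averaging libraries could therefore hardly turn their signs. Rrn3 was called in 11 of 18 (adjusted p 0.000106 to 0.225), Utp18 in 9 (0.0102 to 0.172), Noc4l in 8 (0.00261 to 0.182), Fbl in 6 (0.00724 to 0.206) and Rrs1 in 5 (0.0142 to 0.25). Of the 43 genes, 23 kept their direction in every alternative and 20 turned in at least 1. With library size alone as the scaling, the all-gene median was −0.26 and that of the 43 genes −0.41, and calls over all genes were 226 higher and 1152 lower, where TMM gave 300 and 413.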

How the data were processed

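RNA was read in 6 libraries. Per the labels' protocols, an anchored oligo-dT primer started reverse transcription, SMART-seq2 amplified the cDNA, and both ends were read for 150 bp; no molecular identifier or strand record is described. The authors deposited whole-number read counts per Ensembl gene, and columns of sums and of mean counts (another unit, not used). The submitters' processing notes name mm10, edgeR, DESeq2, StringTie (2.1.7), STAR (2.7.5c) and Trimmomatic (0.39), without roles; the counter, its strand setting and the row filter have no source here.

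GENCODE M21 (GRCm38) named 22562 of 22579 identifiers. All genes were tested together by edgeR (4.0.16, R 4.3.3): quasi-likelihood with robust fit, TMM, filterByExpr, genotype as the sole term, two-sided, Benjamini-Hochberg adjusted p under 0.05. SE was the log2 fold change divided by the root of F. Alternatives were other scalings and filters, a replicate block, each library left out, knockout 1 and 2 as 1 library (rounded mean), mitochondrially encoded genes left out, removal of a lowess trend with exon length and GC content (span 0.3), DESeq2 (1.42.0) and limma-voom with quality weights (limma 3.58.1). The last 2 tests with that pair as 1 library were added after seeing the data. Calls were tested on simulated data.

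Libraries are not tied to animals or litters by the labels. The p-values set the difference between groups against the spread within these groups, which may be technical. Reads are PCR copies, and counts per library limit precision for rare genes. The members and lists were chosen with earlier results of these data known. Values per library were required for called genes, for genes without overlap and with a log2 fold change of 0.58 or more in size, for the smallest p in each role group and for the 3 highest and 3 lowest levels per kb; further genes were chosen after their values were seen.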

Additional observations from a re-analysis of the deposited data

How the results depend on the processing

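Beside 713 genes in all, 2 of the 43 and 2 of the 127 other pathway genes called by edgeR, library size alone gave 1378, 8 and 13, DESeq2 1641, 7 and 9, and limma-voom 2882, 11 and 19. With knockout 1 and 2 as 1 library edgeR gave 1, 0 and 0, DESeq2 469 in all and limma-voom 1 other pathway gene. DESeq2 size factors gave 1 of the 43, no filter 4 of the 43 and 4 of the others, and trend removal 5 of the others. Leaving out 1 library gave 3 (without knockout 3) to 839 genes (without control 1), 0 to 6 of the 43, 0 to 5 of the others, and a median of the 43 from −0.20 to −0.11. That median was −0.41 with library size alone and −0.26 after trend removal.

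The replicate block gave 4 of the 43 (Rrn3, Utp18, Fbl and Noc4l). Same-numbered libraries did not deviate together (r from −0.0042 to 0.0088). This check cannot decide whether they belong together, since the nearly coinciding knockouts can hardly be matched to different controls. A litter, day or batch shared by same-numbered libraries was not tested.

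Sign changes, of unknown cause (the cause was not tested), are log2 fold changes. Library size alone turned Taf1b (−0.0087), Polr1c (−0.051), Ncl (−0.19), Nop56 (−0.0037), Nop58 (−0.15), Rrp9 (−0.053), Nhp2 (−0.20), Utp4 (−0.011), Nob1 (−0.11) and Rrp1 (−0.14). The replicate block turned Pes1 (0.018). Knockout 1 and 2 as 1 library turned Polr1e (0.021), Dkc1 (0.0015), Nop16 (0.018) and Noc3l (0.028). Trend removal turned Polr1c (−0.0068), Nhp2 (−0.30) and Noc3l (0.0088). Limma-voom turned Nhp2 (−0.079), Nop14 (0.053), Rrp12 (0.10) and Pes1 (0.26). DESeq2 with that pair as 1 library turned Polr1e (0.022), Dkc1 (0.0017), Nop16 (0.017) and Noc3l (0.028). Limma-voom with that pair as 1 library turned Nhp2 (−0.12), Pes1 (0.098) and Noc3l (0.012). Leaving out 1 library turned further signs, with ranges of −0.50 to 0.028 for Polr1e, −0.18 to 0.10 for Dkc1, −0.21 to 0.27 for Nhp2, −0.11 to 0.050 for Nop16, −0.10 to 0.079 for Noc3l, −0.17 to 0.0038 for Utp3, −0.30 to 0.0074 for Utp15, −0.25 to 0.059 for Rrp12, −0.23 to 0.32 for Pes1, −0.049 to 0.37 for Rrp1, −0.42 to 0.088 for Nolc1, −0.22 to 0.022 for Nop14 and −0.079 to 0.26 for Ncl. Few reads limit Taf1c and Gar1.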
